A study of Mus musculus with 72 samples.

Results

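The mitochondrial respiratory chain was followed through its genes for the subunits of complexes I, II, III and IV in mouse epidermis. The members were the protein-coding genes whose symbols name a subunit (the Nduf genes of complex I, Sdha to Sdhd of complex II, the Uqcr genes of complex III, the Cox subunit genes of complex IV) and the mt-Nd, mt-Cytb and mt-Co genes of the mitochondrial chromosome. Of 46078 genes in the count tables, 79 carried such a symbol, and 74 of these had at least 10 counts in at least 4 libraries. The 74 comprised 63 nuclear genes (38 of complex I, 4 of complex II, 8 of complex III and 13 of complex IV) and 11 mitochondrially encoded genes (7 of complex I, 1 of complex III and 3 of complex IV). Just inside the count minimum lay Cox7a1, with 10 counts in 16 libraries. The genes outside it were Cox4i2, with 113 counts in all 72 libraries together, Cox8b with 50, Cox6a2 with 13, Cox8c with 2 and Cox7b2 with 0.

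The libraries were made from interfollicular epidermis of the back skin of female C57BL/6 mice of 8 weeks. The WT mice carried K14-Cre, a Cre recombinase driven by a keratinocyte promoter, with the clock gene Arntl (Bmal1) intact. The KO mice carried the Bmal1-stopFL allele alone, whose stop cassette is meant to block Arntl in every tissue, and the RE mice carried Bmal1-stopFL with K14-Cre, so that Arntl is restored in keratinocytes while other cells still lack it. KO and WT therefore differed in the Cre transgene as well as in Arntl. All mice had been held in darkness for between 156 and 176 h, and 4 mice of each genotype were taken at each of 6 time points (72 libraries). The labels give no hour for each time point, so the time points were taken as 4 h apart, in the order of their labels, and a peak time means hours after time point 1. The labels pair no animals across groups, and each p-value measures the spread between these mice.

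Complex I takes electrons from NADH and complex II from succinate; both pass them through ubiquinone to complex III, from which cytochrome c carries them to complex IV, where oxygen is reduced. Complexes I, III and IV pump protons as they work, complex II does not, and complex II is the only one with no subunit encoded in the mitochondrion. The other complexes are mosaics of a few core subunits translated on mitochondrial ribosomes and many subunits translated in the cytosol and imported. Several complex IV subunits come in pairs of isoforms that differ between tissues. In epidermis, keratinocytes are known to shift between glycolysis and respiration as they divide and differentiate, and the clock has been tied to that balance.

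Sequencing depth was between 24.5 and 95.03 M counts, and the median library held 35.4 M. Arntl itself had 18.1, 44.5 and 99.2 counts per M total counts (CPM; lowest, median and highest of 24 libraries) in WT, 26.1, 30.9 and 35.1 in KO, and 47.1, 62.8 and 76.1 in RE. The KO levels lay inside the WT range, so Arntl reads were still counted in every KO library; counts per gene do not show which part of the transcript they come from. All 15 keratinocyte markers were detected in the libraries, with a summed level between 43009 and 67077 CPM. The replicate 4 libraries of time point 6 in WT and KO and the replicate 1 library of time point 6 in RE stood apart. Krt14, a keratin of basal keratinocytes, was at 2245, 660 and 2885 CPM in those libraries, against a median of 5429 CPM over all 72. The 15 keratinocyte markers did not move together: Krt10 was at 21708.1, 34280.5 and 12781.5 CPM, against a median of 11522 CPM. Krt1 was at 9714, 10896 and 4174 CPM, against 4893 CPM. The sum of all 15 was 55389, 65499 and 43009 CPM, against 55337 CPM. The summed level of 7 erythrocyte markers, 5 of them detected, was highest there (271, 629 and 198 CPM, against genotype medians of 31.9, 69.9 and 49.1 CPM). All 8 Langerhans cell markers were detected, and their summed level was the lowest of each genotype there (169, 187 and 195 CPM, against medians of 435, 397 and 399 CPM). Epcam of that list went the other way in the KO and RE libraries (132 and 99.6 CPM, against a median of 90.4 CPM). All 12 hair follicle markers were detected, and the KO and RE libraries held the highest sums of their genotypes (3738 and 2486 CPM, against medians of 1235 and 1022 CPM). Krt79 (2164 and 1405 CPM) and Krt17 (1367 and 809 CPM) made up most of these sums. Lgr6 of the same list lay below its median of 159 CPM in both (9.62 and 132 CPM). What part the libraries that stood apart had in the results was not tested. Where leaving them out changed a count of calls by over 1.5 times, the values without them are given here or with the dependence on processing.

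The chain's genes differed in level by orders of magnitude according to where they are encoded. On a per-length scale (CPM per kilobase of exon, mean of 72 libraries), the highest member was mt-Co1, the catalytic core of complex IV, at 5772. The other mitochondrial members lay between mt-Nd3, a complex I membrane subunit, at 506 and mt-Co2, the complex IV subunit that receives electrons from cytochrome c, at 2906. Among the 38 nuclear genes placed in complex I by their symbol, the highest was Ndufa4l2, a hypoxia-responsive relative of Ndufa4, at 92.5. The next was Ndufb11 at 78.9, and the median of the 38 was 24.7. The lowest of the 38 was Ndufab1, the mitochondrial acyl carrier protein that is also a complex I subunit, at 3.84. Its annotated exon length is long, at 6883 bases. These levels leave out counts on the near-identical copies described below. Those were 99.0% of the own counts of mt-Nd3 and 39.01% of those of Ndufab1, so both ranks could change. Complex II ran from Sdhb, its iron-sulfur subunit, at 19.8 to Sdhd, a membrane anchor, at 41.6. Complex III ran from Uqcrq at 17.3 to Uqcrh, the hinge protein, at 84.4. Complex IV ran from Cox7a1 at 0.309 to Cox6b1, an intermembrane-space subunit, at 128.

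Epidermis used the isoforms of complex IV that are common to most tissues. Cox4i1 was at 121 CPM per kilobase, whereas its lung and hypoxia isoform Cox4i2 fell under the count minimum. Cox6a1 was at 122, and the heart and muscle isoform Cox6a2 fell under the minimum. Cox6b1 was at 128 and the testis isoform Cox6b2 at 1.02. Cox7a2 was at 63.3, against 0.309 for the heart and muscle isoform Cox7a1. Cox7a2l, described as a factor that joins complexes III and IV in supercomplexes, was at 108. Whether it does so in this strain was not tested. Cox7b was at 37.6 and Cox8a at 118 per kilobase, while Cox7b2, Cox8b and Cox8c were under the minimum. Skeletal muscle markers were near 0 as a list, with 9 of 15 detected and a summed level of 3.87 to 11.8 CPM.

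The counts of 6 of the 11 mitochondrial members were shared with a near-identical nuclear copy of mitochondrial DNA on chromosome 1 (GRCm38, around chr1:24613189-24613971 for the copy of mt-Co3). The stretches below show why reads cannot be told apart there; they are read from GRCm38, on the coding strand, and capitals mark the only base that differs.

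mt-Co1, bases 1063 to 1182 of the coding sequence: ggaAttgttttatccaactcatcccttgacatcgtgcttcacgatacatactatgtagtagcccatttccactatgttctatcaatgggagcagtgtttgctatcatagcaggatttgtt
Gm29216, the copy of mt-Co1: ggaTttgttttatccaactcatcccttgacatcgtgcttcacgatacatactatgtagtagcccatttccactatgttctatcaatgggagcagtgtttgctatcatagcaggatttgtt
mt-Co3, bases 1 to 120 of the coding sequence: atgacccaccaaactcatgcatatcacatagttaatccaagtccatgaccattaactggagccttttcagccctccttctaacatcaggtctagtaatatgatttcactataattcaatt
Gm28437, the copy of mt-Co3: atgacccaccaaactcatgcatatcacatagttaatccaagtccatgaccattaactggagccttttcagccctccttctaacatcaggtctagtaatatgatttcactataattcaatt

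Over the 783 aligned bases of mt-Co3 the copy had 0 mismatches, and over 483 bases of mt-Co1 it had 1. Of the reads counted on each pair, the nuclear copy held a median over 72 libraries of 51.4% for mt-Co2, 50.0% for mt-Co3, 49.7% for mt-Nd3, 48.4% for mt-Nd4l, 26.2% for mt-Nd4 and 21.5% for mt-Co1. Between libraries the share ran from 49.7 to 50.4% for mt-Co3 and from 19.4 to 24.8% for mt-Co1. Among nuclear members, 15 had a copy of at least 95% identity over 100 bases, and in 8 the counts on copies exceeded 10% of the member's own. The largest were Cox7c, whose copies held 181% of its own counts, Ndufab1 (39.01%), Cox7b (34.4%), Ndufs5 (31.9%) and Ndufb4 (31.7%). The calls that ended when the counts of copies were added back are named beside the results.

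Together the 63 nuclear members took 0.291 to 0.454% of all counts in a library, and the 11 mitochondrial members 1.81 to 7.40%. As mean ± SD of 24 libraries, the nuclear share was 0.352 ± 0.0323% for WT, 0.353 ± 0.0339% for KO and 0.358 ± 0.0370% for RE. The mitochondrial share was 2.59 ± 1.19%, 2.39 ± 0.614% and 2.31 ± 0.662%. The genotypes' ranges overlapped for both shares. In 5 libraries the mitochondrial share exceeded 3%, all of them at time point 6, and in the other 67 it was at most 2.75%.

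**Figure D1:**
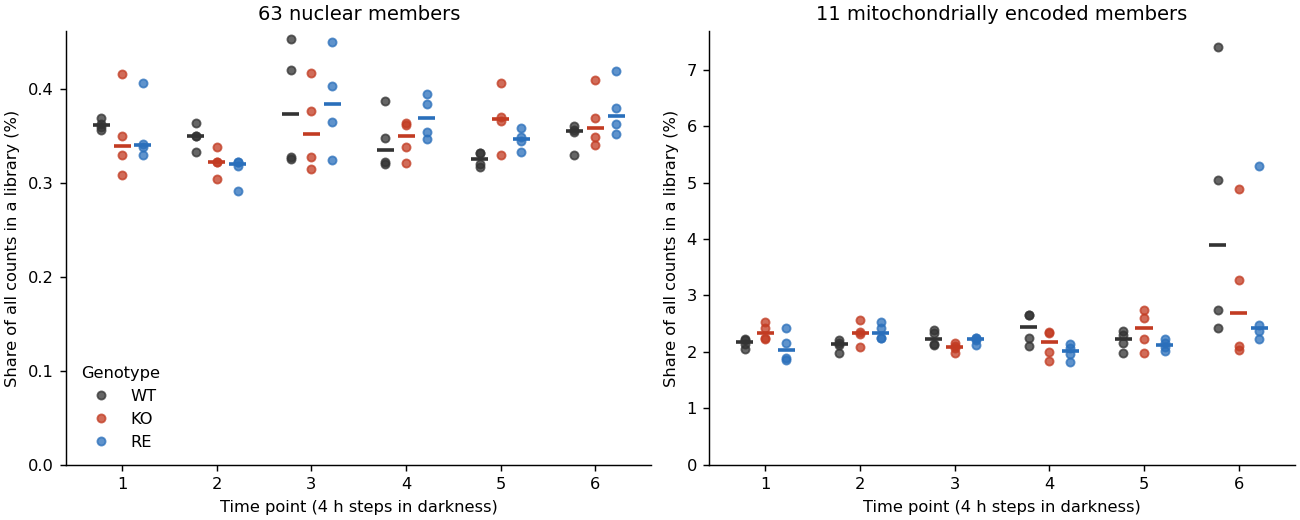
Share of each library's counts on the 11 mitochondrially encoded members (right) and the 63 nuclear members (left), in percent, by time point 1 to 6 and genotype; points are libraries and short bars are medians of 4. The mitochondrial share is highest at time point 6, where it reaches 7.40% in WT, 4.89% in KO and 5.29% in RE.

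Averaged over the 6 time points, most nuclear subunit genes had nearly the same level in KO as in WT. Between KO and WT, 5 of 63 nuclear members passed an adjusted p of 0.05 (edgeR's quasi-likelihood test, Benjamini-Hochberg over all 18538 genes), 4 higher and 1 lower in KO, and 11 had an unadjusted p under 0.05. The count was 11 without WT time point 3 replicate 3, and DESeq2 called 8. The 5 are 7.94% of the nuclear members, against 28.2% of all genes tested, of which 14.6% were higher and 13.6% lower. The log2 difference of 61 of the 63 lay within 0.2 of 0, and its median was 0.033, against -0.0026 over all genes. None of the 11 mitochondrial members passed, none had an unadjusted p under 0.05, DESeq2 and limma voom also called 0, and their median log2 difference was -0.09.

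Of the genes placed in complex I by their symbol, 3 rose and 1 fell in KO. Ndufa4, first described in complex I and since assigned to complex IV, had lowest, median and highest levels of 48.2, 54.1 and 74.4 CPM in WT and 45.1, 62.8 and 109 CPM in KO (n = 24 each). Its log2 difference was 0.23 (SE 0.073, adjusted p = 0.0137), and the genotypes overlapped over most of their ranges. Ndufv3, an accessory subunit of the NADH-oxidising module, was at 48.2, 56.8 and 67.5 CPM in WT and 52.1, 60.8 and 77.1 CPM in KO, a log2 difference of 0.13 (SE 0.043, adjusted p = 0.0190). Ndufa3, an accessory membrane-arm subunit, rose by 0.15 (SE 0.058, adjusted p = 0.0427), a call that ended without any of 22 single libraries, with an adjusted p of 0.0883 at most, and without the 3 libraries that stood apart (0.0602). Ndufb4, another accessory membrane-arm subunit, fell by 0.14 (SE 0.050, adjusted p = 0.0244), from a median of 22.3 to 20.8 CPM. With the counts of its pseudogene copies added, the adjusted p of Ndufb4 was 0.0705.

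In complex II, none of the 4 genes passed. Sdha, the flavoprotein that oxidises succinate, was the steadiest member of the whole chain, with a coefficient of variation of 5.15% over 72 libraries. Its level was 135 ± 6.01 CPM in WT, 136 ± 7.52 in KO and 138 ± 7.33 in RE (SD, n = 24). The KO minus WT log2 differences were 0.011 for Sdha, -0.074 for Sdhb, -0.027 for Sdhc and -0.062 for Sdhd, with standard errors of 0.0223 to 0.0491 and adjusted p of 0.175 to 0.751. In complex III, none of 8 passed, with log2 differences from -0.088 to 0.11.

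In complex IV, 1 of 13 nuclear genes passed. Cox7b, a small membrane subunit, was at 36.3, 43.3 and 48.8 CPM in WT and 36.9, 47.1 and 59.8 CPM in KO. It rose by 0.17 (SE 0.048, adjusted p = 0.0052), a call kept without each of the 72 libraries in turn, but its adjusted p was 0.111 with the counts of its pseudogenes added. Among the tissue isoforms, Cox4i1 differed by 0.061 (adjusted p = 0.442), Cox6a1 by 0.14 (0.0790), Cox6b1 by 0.14 (0.0535), Cox7a2 by 0.0081 (0.939), Cox7a2l by 0.096 (0.236) and Cox8a by 0.072 (0.494) on the log2 scale. Cox6b2 differed by -0.089 (adjusted p = 0.617) and Cox7a1 by -0.31 (SE 0.25, adjusted p = 0.363).

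**Figure D2:**
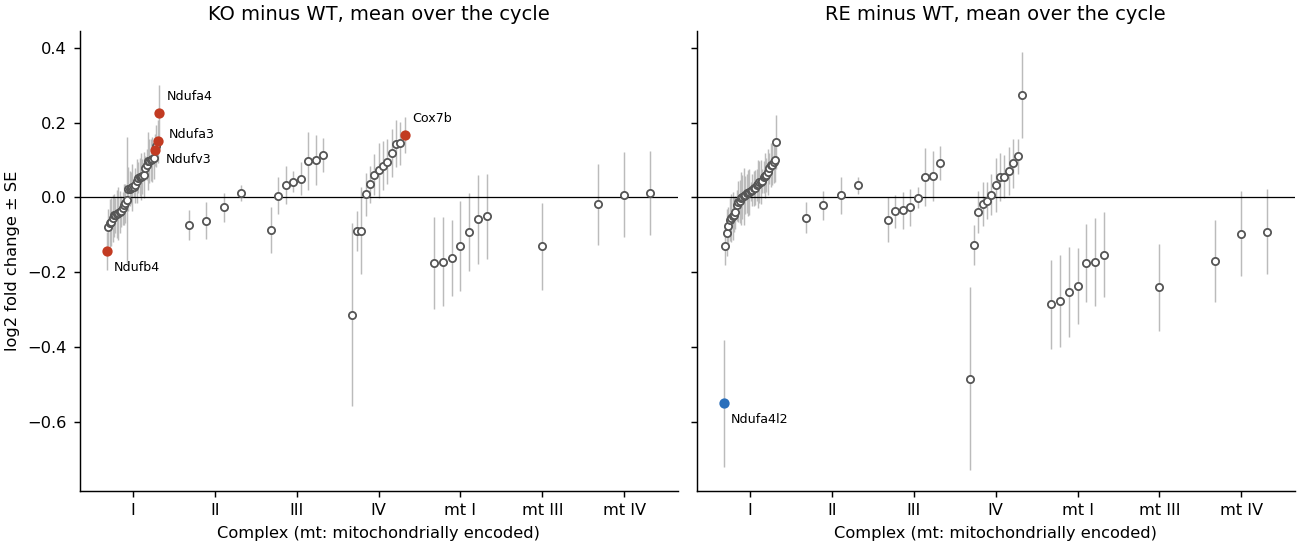
Log2 difference of mean level, KO minus WT and RE minus WT, for each member, by complex and genome of origin, with error bars of 1 standard error; filled points passed an adjusted p of 0.05. The KO minus WT differences of 61 of the 63 nuclear members lie within 0.2 of 0, and the member with the largest called difference is Ndufa4l2, at -0.55 in RE minus WT.

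Between RE and WT, 1 of 63 nuclear members passed (1.59%, against 4.03% of all genes, 2.07% higher and 1.96% lower), and 7 had an unadjusted p under 0.05. The gene was Ndufa4l2, at 48.5, 107 and 262 CPM (lowest, median and highest of 24) in WT and 30.3, 62.1 and 234 CPM in RE. Its log2 difference was -0.55 (SE 0.17, adjusted p = 0.0473), and the genotypes overlapped widely. That call ended without any of 35 single libraries, with an adjusted p of 0.102 at most. Of the 11 mitochondrial members, 0 passed by edgeR, DESeq2 and limma voom alike, although all 11 log2 differences were below 0 (-0.29 to -0.091) and 5 had an unadjusted p under 0.05. Without the 3 libraries that stood apart their median was -0.16 in place of -0.18, 9 had an unadjusted p under 0.05 and 2 passed. Without the 5 libraries of high mitochondrial share the median was -0.076 and 1 passed.

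Between RE and KO, 2 of 63 nuclear members passed (3.17%, against 22.5% of all genes, 11.5% higher and 11% lower), and both held without each single library. Ndufa4l2 was lower in RE by a log2 difference of -0.54 (SE 0.17, adjusted p = 0.0147), from a median of 102 CPM in KO to 62.1 CPM. Cox6b2 was higher in RE by 0.36 (SE 0.12, adjusted p = 0.0180), from a median of 0.971 to 1.25 CPM, a very low level for this testis isoform. None of the 11 mitochondrial members passed or had an unadjusted p under 0.05 (DESeq2 and limma voom also 0), with log2 differences from -0.15 to -0.075. The comparisons of KO with WT and of RE with WT use the same 24 WT libraries.

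Library by library, the nuclear members moved up and down together. In 11 of 72 libraries at least 59 of the 63 lay above their own mean over all libraries. The largest median shift, 0.43 on the log2 scale with 62 of 63 above, was in the RE library of time point 3, replicate 3. The WT library of time point 3, replicate 3, had a median shift of 0.42, also with 62 of 63 above. In the lowest, the RE library of time point 2, replicate 2, 0 of 63 lay above and the median shift was -0.35. The 4 Sdh genes shared the movement, with a median shift of 0.30 in that WT library.

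This movement was not limited to the members. A set of 301 other short coding genes was chosen after the values were seen. They had less exon than the members' median of 1381 bases and at least 10 CPM. Only the members were kept out of this set, so complex V and mitochondrial ribosomal protein genes of that length could be in it. Its median shift had the same sign as that of the members in 67 of the 72 libraries. The medians of members and short genes differed by 0.019 in the middle library and by 0.072 at most. The short genes' shift ran from -0.33 to 0.42, while the median over all genes ran from -0.022 to 0.013. The complex V genes had a median shift of 0.42 in the WT library of time point 3, replicate 3, and -0.41 in the RE library of time point 2, replicate 2. The part of transcript length or RNA quality in the results on time points that follow was not tested. Among time points, 19.9% of the short genes passed in WT, 11.3% in KO and 15.6% in RE. A 24 h rhythm passed for 7.31%, 2.99% and 1.66% of them. In KO against WT their median log2 differences at time points 1 to 6 were 0.11, -0.0012, -0.058, -0.021, 0.13 and 0.089, and those of the nuclear members were 0.017, -0.0060, -0.059, -0.0074, 0.19 and 0.072. In these bulk libraries, fewer cells of a type and less RNA per cell cannot be told apart.

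**Figure D3:**
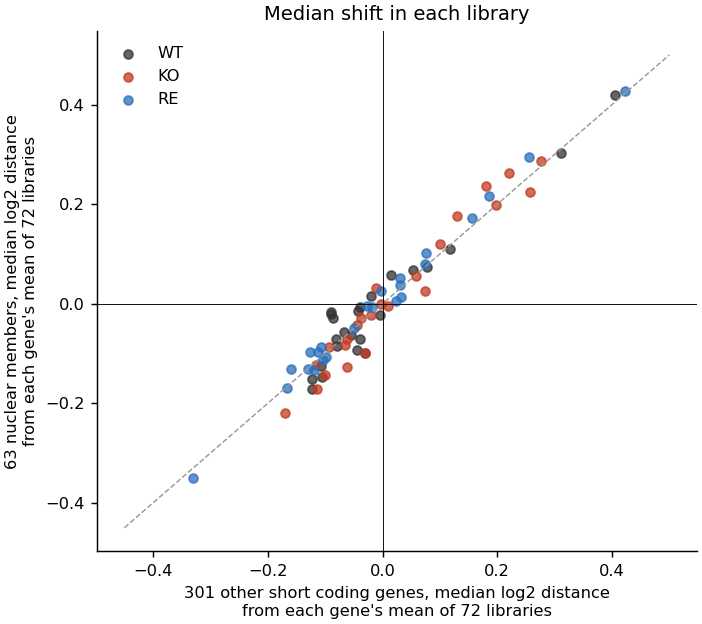
Median log2 shift of the 63 nuclear members from their own means (vertical axis) against that of 301 other short coding genes (horizontal axis), 1 point for each of 72 libraries, coloured by genotype. The points lie along the diagonal, from -0.35 in the RE library of time point 2, replicate 2, to 0.43 in the RE library of time point 3, replicate 3.

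Most nuclear members shared their highest and lowest time points within a genotype. In WT, 51 of 63 (81%) were highest at time point 3 and 47 (74.6%) lowest at time point 5, against 23.1% and 19% of all genes. The WT libraries of time point 3 were divided. The median shift of the 63 was 0.30 and 0.42 in replicates 2 and 3, but -0.072 and -0.071 in replicates 1 and 4. In the same order, the short genes shifted by 0.31, 0.41, -0.080 and -0.038. In RE, 51 were again highest at time point 3 and 48 (76.2%) lowest at time point 2, against 20.2% of all genes at their lowest there. Replicates 1 to 4 of RE at time point 3 had median shifts of 0.081, 0.22, 0.43 and -0.048. In KO the members were divided: time point 6 was the highest for 31 and time point 3 for 23, and time point 4 was the lowest for 32 and time point 2 for 27. The swings were small: the mean of the highest time point exceeded that of the lowest by a median factor of 1.25 in WT, 1.25 in KO and 1.34 in RE, against 1.34, 1.34 and 1.31 over all genes.

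Tested for any difference among the 6 time points (a comparison of means with no assumed shape), 7 of 63 nuclear members passed in WT (11.1%, against 11% of all genes), 4 in KO (6.35%, against 6.42%) and 15 in RE (23.8%, against 6%). In RE, 49 of 63 (77.8%) had an unadjusted p under 0.05, as did 54.8% of the other short genes. The 7 in WT were Cox7a2l, Uqcrh, Ndufb11, Ndufa6, Cox4i1, Uqcrfs1 and Ndufv3. Without WT time point 3 replicate 2 the count fell to 1. The 4 in KO were Ndufab1, Cox8a, Cox5a and Ndufs3, and 1 was left without KO time point 2 replicate 3 and 10 without KO time point 4 replicate 1. Without the 3 libraries that stood apart, 1 was left as well: the adjusted p was 0.0511 for Cox8a, 0.0652 for Cox5a and 0.0962 for Ndufs3. With copies added, that of Ndufs3 was 0.0720. In RE the lowest adjusted p belonged to Cox8a (0.0035), Cox7c (0.0107), Ndufs4 (0.0123), Uqcrh (0.0204), Ndufv3 (0.0265), Cox5b (0.0275), Ndufc1 (0.0342) and Ndufb2 (0.0347). With the counts of its copies added, the adjusted p of Cox7c was 0.1003. The RE count fell to 3 without RE time point 2 replicate 2 and rose to 35 without RE time point 3 replicate 4.

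Fitted 24 h cosine rhythms were fewer. Of the 63 nuclear members, 1 passed in WT (against 11% of all genes), 3 in KO (5.87%) and 2 in RE (2.7%). The median peak-to-trough difference of the nuclear members was 0.11 in WT, 0.15 in KO and 0.16 in RE on the log2 scale, against 0.26, 0.26 and 0.22 over all genes. The rhythm differed from that of WT for 2 nuclear members in KO (6.2% of all genes) and 1 in RE (2.17%). Between RE and KO no member's rhythm differed; edgeR, DESeq2 and limma voom each called 0 members, 0 had an unadjusted p under 0.05, and edgeR called 0% of all genes. The members of smallest p there were Ndufa6, Ndufs1 and Ndufb4.

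Cox8a, a small membrane subunit of complex IV, was the only nuclear member with a rhythm called in both KO and RE. At time point 5 its 4 WT libraries held 64.6, 64.6, 53.02 and 55.1 CPM, the 4 KO libraries 91.8, 107, 82.7 and 73.6 CPM, and the 4 RE libraries 85.6, 86.3, 71.6 and 77.3 CPM. Every KO and RE library lay above every WT library at that time point. At time point 2 WT held 68.1, 64.2, 68.7 and 71.9 CPM, KO 67.3, 58.99, 52.2 and 53.5 CPM, and RE 56.4, 41.04, 54.6 and 59.5 CPM. All RE libraries lay below all WT libraries there, while KO overlapped WT. Both time points were picked after the values were seen, so these separations add no support to the calls.

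The means of Cox8a at time points 1 to 6 were 71.9, 68.2, 84.2, 68.8, 59.4 and 73.4 CPM in WT, 62.9, 58.0, 75.7, 77.1, 88.7 and 89.3 CPM in KO, and 56.5, 52.9, 77.3, 87.2, 80.2 and 87.3 CPM in RE (SD 3.17 to 18.7, n = 4). It thus climbed from early to late time points in KO and RE, while WT peaked at time point 3 and was lowest at time point 5. The fitted swing was 0.58 in KO (SE 0.15, peak at 15.8 h, adjusted p = 0.0251) and 0.72 in RE (SE 0.15, peak at 14.6 h, adjusted p = 0.00792). In WT it was 0.24 (SE 0.15, adjusted p = 0.519). The difference of rhythm from WT had an adjusted p of 0.0296 in KO and 0.0235 in RE. Without WT time point 5 replicate 3 these were 0.0598 and 0.0502. The RE rhythm was kept without each of the 72 libraries in turn, whereas any of 3 single libraries ended the KO rhythm (adjusted p = 0.0764 without KO time point 5 replicate 2).

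Ndufab1 showed a late peak in KO. Its 4 KO libraries held 24.2, 22.5, 21.2 and 18.6 CPM at time point 2, 29.8, 34.3, 31.8 and 27.4 CPM at time point 5, and 29.9, 29.5, 32.2 and 31.8 CPM at the last. The late groups lay wholly above time point 2, and these time points too were picked after the values were seen. In WT, time point 2 held 26.02, 29.3, 24.1 and 21.2 CPM and time point 6 held 24.1, 28.8, 27.7 and 32.4 CPM, so that the groups overlapped. The swing was 0.50 in KO (SE 0.094, peak at 17.0 h, adjusted p = 0.0016) and was called without each library in turn, against 0.15 in WT (SE 0.094, adjusted p = 0.505) and 0.28 in RE (SE 0.094, adjusted p = 0.180). The difference of rhythm between KO and WT had an adjusted p of 0.0310, and 0.0671 without WT time point 5 replicate 3. With the counts of its copies added, the adjusted p was 0.0029 for the KO rhythm and 0.0388 for the difference.

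Cox5a and Cox7c completed the rhythms called in KO and RE. Cox5a, a matrix-side subunit of complex IV, held 29.1, 29.8, 28.2 and 27.3 CPM in KO at time point 2 and 45.3, 37.5, 37.1 and 48.2 CPM at time point 6. Its swing in KO was 0.47 (SE 0.13, peak at 16.8 h, adjusted p = 0.0455), and any of 15 single libraries ended the call (adjusted p = 0.126 without KO time point 5 replicate 2). The adjusted p was 0.0556 without the 3 libraries that stood apart and 0.0568 by limma voom. Cox7c, another small subunit of complex IV, held 16.5, 15.3, 15.6 and 15.8 CPM in RE at time point 2 and 25.96, 26.2, 22.1 and 21.8 CPM at time point 6. Its swing in RE was 0.48 (SE 0.11, peak at 16.4 h, adjusted p = 0.0197). With the counts of its 3 pseudogene copies added, the adjusted p of Cox7c was 0.427.

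Cox7a2l carried the only nuclear rhythm called in WT. Its 4 WT libraries held 153, 247, 252 and 166 CPM at time point 3 and 124, 130, 130 and 134 CPM at time point 5. Replicates 2 and 3 of time point 3 stood far above the rest, and they were also the libraries in which 62 of 63 members lay above their own mean. The swing was 0.45 in WT (SE 0.12, peak at 8.24 h, adjusted p = 0.0164), against 0.13 in KO (SE 0.12, adjusted p = 0.713) and 0.20 in RE (SE 0.12, adjusted p = 0.580). Without WT time point 3 replicate 3 the adjusted p was 0.102. The difference of rhythm between KO and WT did not pass (adjusted p = 0.0713).

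**Figure D4:**
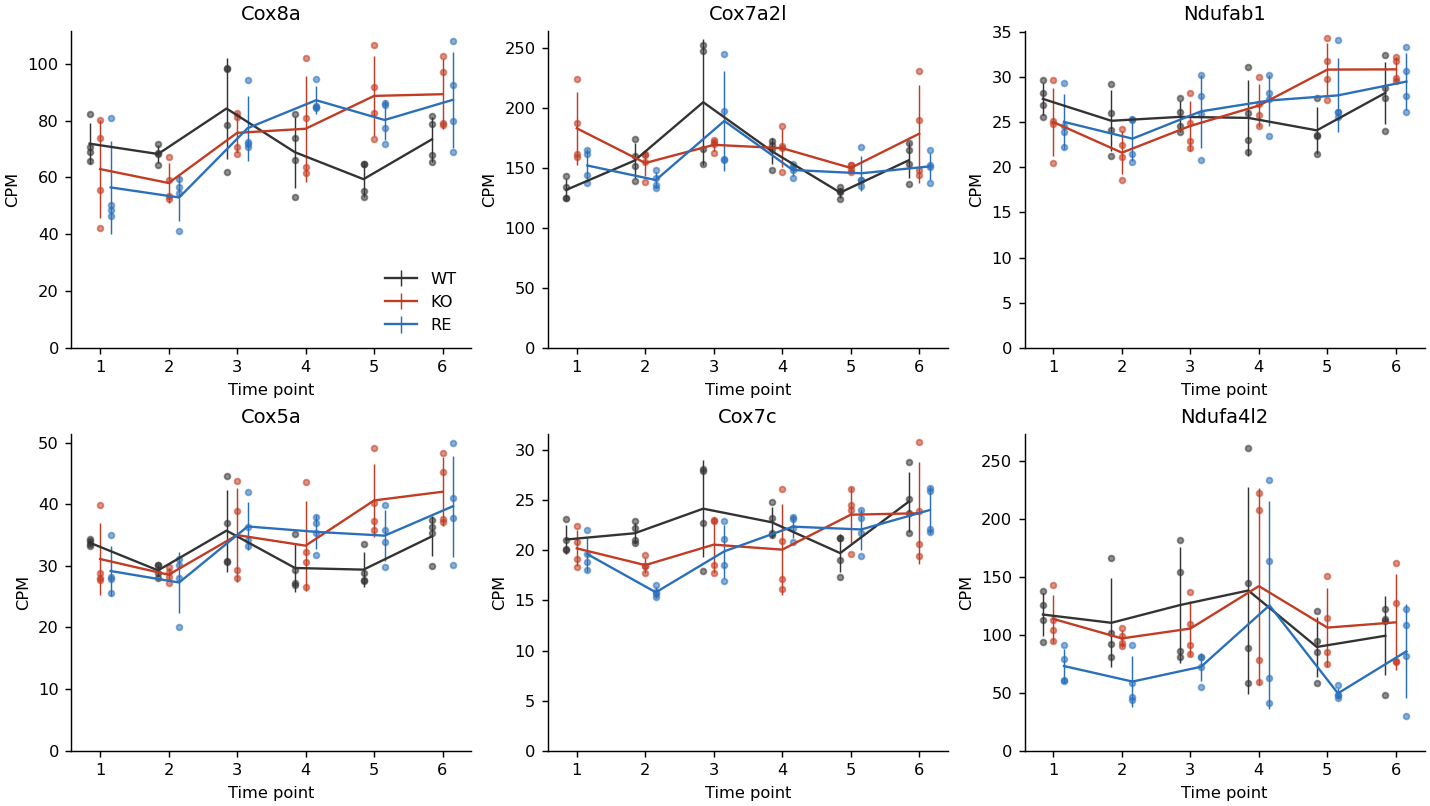
Levels in CPM of the 5 nuclear members whose rhythm was called and of Ndufa4l2, by time point 1 to 6 and genotype; points are libraries, lines join means of 4 and vertical bars are 1 SD. At time point 5 every KO and RE library of Cox8a lies above every WT library, and Ndufab1 in KO is lowest at time point 2.

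The members were then compared at each time point. At time point 5, 6 of 63 nuclear members were higher in KO than in WT (9.52%, against 6.12% of all genes, both directions). In all, 24 had an unadjusted p under 0.05, and 60 of 63 differences lay above 0, with a median of 0.19 against 0.015 over all genes. The 301 other short genes had a median of 0.13, 76.1% above 0 and 21.6% with an unadjusted p under 0.05. The 6 included Cox8a at 0.58 (SE 0.16, adjusted p = 0.0241), Cox5a at 0.47 (0.0361), Cox6b1 at 0.42 (0.0281) and Cox6c at 0.39 (0.0225). The others were Ndufs3, a core subunit of complex I, at 0.30 (0.0336) and Uqcrc2, a core protein of complex III, at 0.19 (0.0470). Without KO time point 5 replicate 2 the adjusted p of Cox8a was 0.121 and that of Cox6c 0.125, and without WT time point 5 replicate 3 the count over all time points fell from 8 to 2. The call of Uqcrc2 was ended by any of 14 single libraries, by DESeq2's size factors (adjusted p = 0.0510) and by testing all genes with no filter on low counts (0.147).

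The levels by library at that time point follow for some of those genes. They were called on these same libraries, so a separation of the genotypes adds no support. The share of all genes that separate so was not counted. Cox6c, a complex IV subunit, held 65.5, 69.4, 69.6 and 68.2 CPM in WT and 87.0, 103, 90.4 and 77.5 CPM in KO. Cox6b1 held 78.5, 81.2, 75.5 and 75.1 CPM in WT and 109, 120, 98.1 and 88.6 CPM in KO. Cox5a held 28.8, 33.5, 27.7 and 27.5 CPM in WT and 40.2, 49.1, 37.3 and 35.8 CPM in KO. Ndufs3 overlapped at its edge, with 39.7, 38.5, 34.9 and 34.1 CPM in WT and 46.4, 51.0, 44.4 and 39.7 CPM in KO. In KO, replicate 2 was the highest library for each of these genes. Cox5a, Cox6c, Ndufs3 and Uqcrc2 share 12.8%, 7.01%, 4.04% and 19.7% of their exon bases with a gene on the other strand, and the strand setting of the counting is not known from the labels.

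At the other time points few members were called between KO and WT, and their separation again comes from the libraries that gave the call. Time point 1 called 1 (against 1.95% of all genes), Cox7a2l, with 143, 134, 124 and 125 CPM in WT and 159, 161, 187 and 224 CPM in KO. Every KO library lay above every WT library, and the log2 difference was 0.48 (SE 0.12, adjusted p = 0.0267; 0.168 without KO time point 1 replicate 4). Time point 4 called 1 (against 5.07%), Ndufb4, with 22.5, 20.95, 22.0 and 24.2 CPM in WT and 19.8, 15.4, 18.4 and 16.02 CPM in KO. All KO libraries lay below all WT libraries (log2 difference -0.37, SE 0.11, adjusted p = 0.0345), and with pseudogene counts added the adjusted p was 0.0827.

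Time points 2, 3 and 6 called 0 nuclear members in KO against WT by edgeR, against 3.31%, 7.59% and 3.45% of all genes, with 1, 6 and 4 members at an unadjusted p under 0.05. Over the 6 time points together edgeR called 8, DESeq2 9 and limma voom 9. The members of smallest p at time point 2 were Cox7b (log2 difference 0.20), Cox6b2 (-0.56) and Cox7c (-0.23), with adjusted p from 0.258 up. At time point 3 they were Uqcrh (-0.27), Ndufb11 (-0.26) and Ndufa6 (-0.27), from 0.0999 up. At time point 6 they were Ndufv2 (0.24), Ndufs3 (0.21) and Cox7a1 (-1.47), from 0.153 up.

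Between RE and WT, edgeR, DESeq2 and limma voom called 0 members at any time point. At time points 1 to 6, 0.124%, 0.0647%, 0.739%, 0.583%, 1.08% and 0.0162% of all genes passed, so that calls were scarce for any gene. The numbers of nuclear members with an unadjusted p under 0.05 were 2, 10, 4, 7, 3 and 0. At time point 2 all 10 lay lower in RE, the median difference of the 63 was -0.12, and that of the short genes was -0.11. The members of smallest p were Cox8a, Ndufa1 and Ndufa7 at time point 1, Cox7c, Ndufs5 and Cox8a at time point 2, and Cox7b, Ndufv3 and Cox7c at time point 3. At time point 4 they were Cox6b2, Cox5b and Ndufv3, at time point 5 Cox8a, Ndufa4l2 and Cox6b2, and at time point 6 Cox6b2, Cox7a1 and Cox5b. Their log2 differences included -0.46 for Cox7c at time point 2 (adjusted p = 0.199) and 0.43 for Cox8a at time point 5 (adjusted p = 0.184).

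The mitochondrial members followed a different course. All 11 were highest at time point 6 in each genotype, where the shares by library were 2.42, 5.04, 2.74 and 7.40% in WT, 2.03, 2.097, 3.27 and 4.89% in KO, and 5.29, 2.47, 2.23 and 2.37% in RE. So 2 libraries of 4 were high in WT and KO and 1 of 4 in RE, and the other 7 libraries of time point 6 held at most 2.74%. The highest time point exceeded the lowest by a median factor of 2.31 in WT, 1.55 in KO and 1.59 in RE for these genes, against 1.25, 1.25 and 1.34 for the nuclear members. The ratio of mitochondrial to nuclear members' counts was 12.8 ± 7.27 in WT, 8.59 ± 4.31 in KO and 8.16 ± 3.85 in RE at time point 6 (SD, n = 4), against genotype medians of 6.57, 6.36 and 6.08.

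mt-Co1 stood for the group. Its 4 WT libraries at time point 6 held 9013, 19191, 9563 and 29094 CPM, against 6544 to 10149 CPM over the 20 WT libraries of the other time points. At the same time point KO held 8169, 8087, 11864 and 20947 CPM and RE 18259, 8804, 7762 and 8572 CPM. In each genotype, at least 1 library of time point 6 lay within the range of the others. mt-Nd1, a core membrane subunit of complex I, held 2419, 5154, 2542 and 6768 CPM in WT at time point 6, in the same order of libraries.

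By the test among time points, all 11 mitochondrial members passed in WT (adjusted p from 6.13e-05 for mt-Co1 to 0.000933 for mt-Nd4l), and 0 in KO and RE by edgeR. Of all genes, 11% passed in WT, 6.42% in KO and 6% in RE. The numbers with an unadjusted p under 0.05 were 4 in KO and 7 in RE; DESeq2 called 0 in KO and 1 in RE. The 24 h cosine passed for 11% of all genes in WT, 5.87% in KO and 2.7% in RE. In WT it passed for 5 of the 11 mitochondrial members (mt-Nd4l, mt-Nd2, mt-Nd5, mt-Co1 and mt-Nd4, adjusted p 0.0183 to 0.0326). Their peaks fell between 18.7 and 19.7 h, and the median swing of the 11 was 0.70. The median swing was 0.45 in KO and 0.34 in RE, where 0 passed by edgeR, DESeq2 and limma voom and 1 and 0 members had an unadjusted p under 0.05. A difference of rhythm between genotypes was called for 0 of the 11 in every pair by the same tools, with 0 at an unadjusted p under 0.05. Of all genes, edgeR called 6.2% in KO against WT, 2.17% in RE against WT and 0% in RE against KO.

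Those calls rested on few libraries. Without WT time point 6 replicate 4, 4 of the 11 still differed among time points in WT and the adjusted p of the mt-Co1 rhythm was 0.325. Without the 3 libraries that stood apart, 11 differed among time points and 0 had a called rhythm. Without the 5 libraries of high mitochondrial share, 2 (mt-Co1 and mt-Co3) differed and 0 had a rhythm; those 5 were picked by the same quantity that is tested. In WT time point 6 replicate 2, the other high WT library, Krt14 was at 6259 CPM, above the median of all libraries. What sets these libraries apart was not tested.

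At time point 6 all 11 mitochondrial members lay below WT in KO, with a median log2 difference of -0.55, and in RE, with -0.62. Of these, 8 and 10 had an unadjusted p under 0.05, and 0 passed the adjustment, against 3.45% and 0.0162% of all genes. The smallest adjusted p were 0.0818 for mt-Nd2 in KO and 0.443 for mt-Nd4l in RE. Without KO time point 6 replicate 4, 8 members passed in KO against WT, and without RE time point 6 replicate 1, 7 passed in RE against WT. Those libraries had the highest mitochondrial share of their groups (4.89% and 5.29%), while the high WT libraries (5.04% and 7.40%) stayed in. Such a removal on 1 side widens the difference by itself, so these counts cannot show one. Without all 5 libraries of high share the medians were -0.39 and -0.16, and the calls over all time points numbered 3 and 2. At time points 1 and 2 all 11 lay above WT in KO, with medians of 0.16 and 0.24 and no unadjusted p under 0.05.

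**Figure D5:**
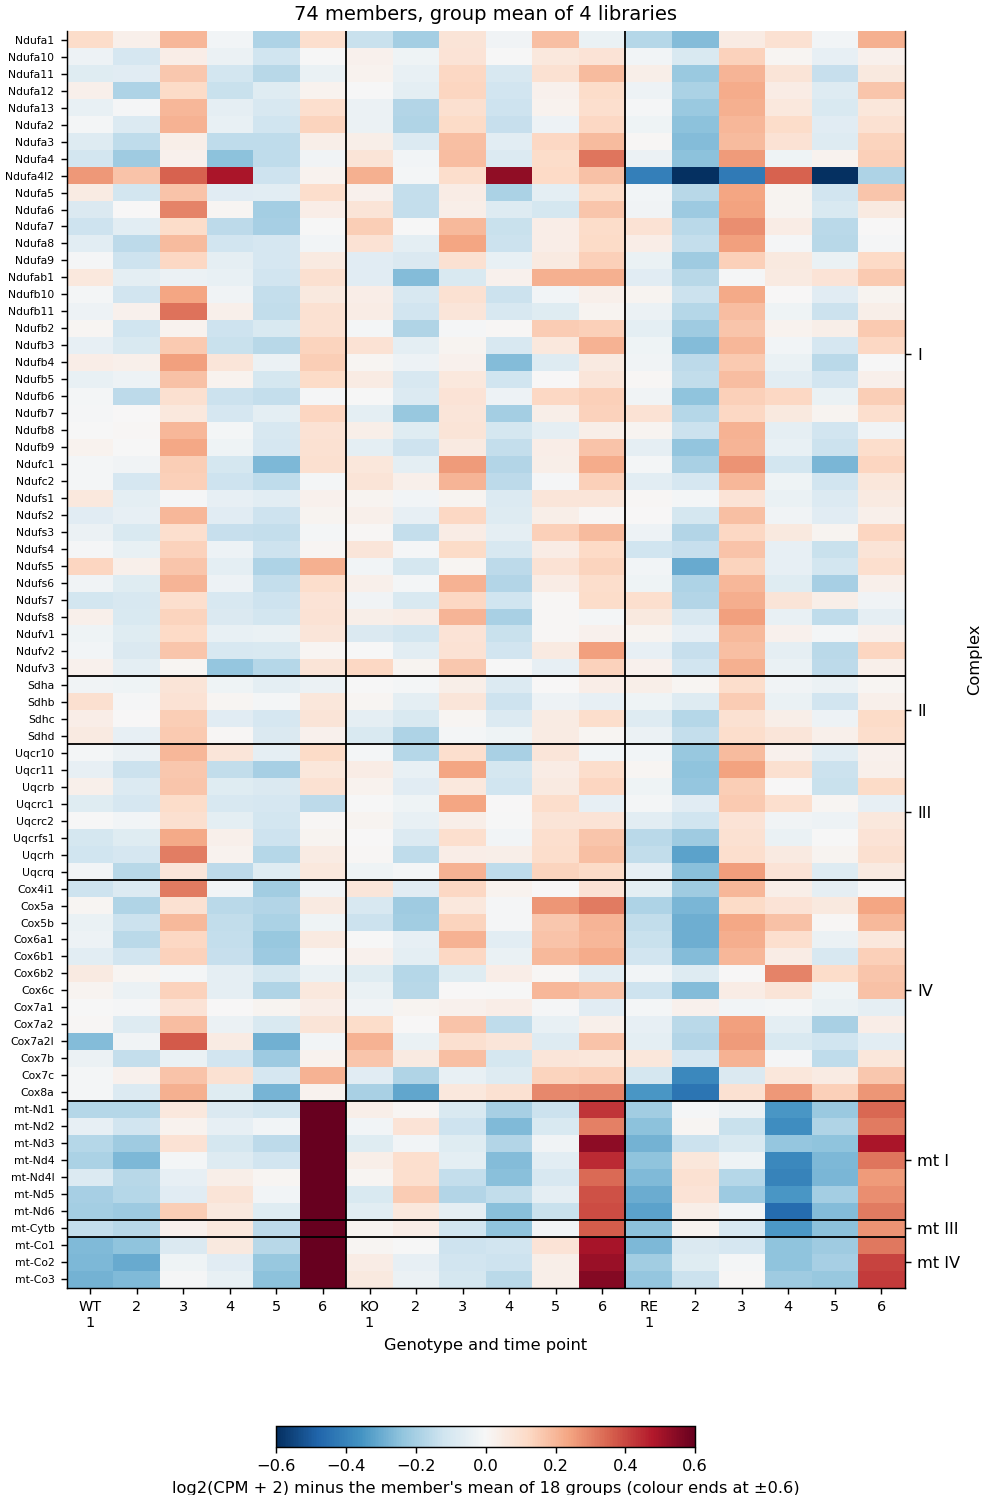
Log2(mean CPM of 4 libraries + 2) of each member at time points 1 to 6 in WT, KO and RE, as the difference from that gene's mean over all 18 groups. Members are ordered by genome of origin and complex, and colours end at 0.6 in either direction. The mitochondrial members are highest at time point 6 in each genotype, and most nuclear members are highest at time point 3 in WT and RE.

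The promoters of the nuclear members were searched for the elements known to drive respiratory genes and for clock elements. RefSeq promoters of GRCm38.p6, running from 250 bases before to 50 after the start, matched 52 of the 63. The 3 genes below are those with a nuclear rhythm called in WT, or with a rhythm that differed from WT; capitals mark every match to the 8 motifs searched.

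Cox8a promoter, chr19:7217567-7217866, strand minus: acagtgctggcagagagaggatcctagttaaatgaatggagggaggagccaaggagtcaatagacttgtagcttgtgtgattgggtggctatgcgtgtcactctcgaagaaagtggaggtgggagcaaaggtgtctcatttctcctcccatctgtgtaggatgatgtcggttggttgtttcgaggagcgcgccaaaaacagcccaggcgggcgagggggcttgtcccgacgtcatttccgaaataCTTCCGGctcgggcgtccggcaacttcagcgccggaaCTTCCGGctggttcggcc
Ndufab1 promoter, chr7:122101799-122102098, strand minus: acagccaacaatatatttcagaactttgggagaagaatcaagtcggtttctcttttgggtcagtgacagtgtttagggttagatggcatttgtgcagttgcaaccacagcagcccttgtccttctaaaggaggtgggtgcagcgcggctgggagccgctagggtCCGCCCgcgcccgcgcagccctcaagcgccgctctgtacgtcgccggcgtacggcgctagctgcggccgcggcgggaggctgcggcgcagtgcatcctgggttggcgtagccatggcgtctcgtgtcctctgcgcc
Cox7a2l promoter, chr17:83514284-83514583, strand minus: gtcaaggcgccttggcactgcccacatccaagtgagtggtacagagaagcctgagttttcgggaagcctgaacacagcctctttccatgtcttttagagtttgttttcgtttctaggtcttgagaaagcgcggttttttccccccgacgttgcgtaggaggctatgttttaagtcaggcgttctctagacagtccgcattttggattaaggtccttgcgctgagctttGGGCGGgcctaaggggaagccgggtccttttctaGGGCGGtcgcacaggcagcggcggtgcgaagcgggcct

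On both strands, the ETS element of GABPA (CCGGAAG) was found in 21.2% of the members' promoters and 12.4% of all 16338. The NRF1 core (GCATGCGC) was found in 13.5% and 3.78%, the YY1 element (AAGATGGCG) in 9.62% and 2.06%, and the ERR element (TCAAGGTCA, which contains AGGTCA) in 1.92% and 0.331%. The SP1 element (GGGCGG) was found in 42.3% and 48.3%. Of the clock elements, the E-box bound by BMAL1 and CLOCK (CACGTG) was found in 3.85% and 8.15%, in Ndufa7 and Ndufv1 only. The ROR core (AGGTCA) was found in 21.2% and 14.2% and the D-box (TTATGNAA) in 1.92% and 3.11%. Cox8a held 2 GABPA matches, at -5 and 32 bases from its start, and none of the clock elements as spelled here. Ndufab1 and Cox7a2l held SP1 matches alone. A match is a stretch of letters, not a measured binding site.

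Genes that serve the chain without being subunits were tallied from lists set beside the members. In KO against WT, 9 of 44 assembly factors passed, 2 higher and 7 lower, where 28.2% of all genes passed (14.6% higher and 13.6% lower). Ttc19, a complex III assembly factor, had a log2 difference of -0.25 (SE 0.031, adjusted p = 1.53e-09), Uqcc2 of -0.21, Ndufaf4 of -0.21 and Uqcc1 of -0.12, whereas Cox20 was higher by 0.39. Of 18 genes for mitochondrial DNA upkeep and transcription, 4 were lower and 0 higher: Mgme1 by -0.28, Tfb1m by -0.18, Tfam, the packaging factor of mitochondrial DNA, by -0.11 (SE 0.033, adjusted p = 0.0051) and Lrpprc by -0.063. In RE against KO, 22.5% of all genes passed (11.5% higher and 11% lower). There 6 of 44 assembly factors and 5 of 18 mitochondrial DNA genes passed, all higher, among them Ttc19 at 0.15, Uqcc1 at 0.14 and Mgme1 at 0.33. In RE against WT, 3 of 44 and 0 of 18 passed, against 4.03% of all genes. Ttc19 was lower in RE at -0.10 (edgeR adjusted p = 0.0415), Higd1a lower at -0.26 (0.0284) and Cox20 higher at 0.63 (0.0013).

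The remaining lists were read against the same shares of all genes. Of 20 complex V genes, 2 were higher in KO (Atp5d at 0.21 and Atp5g1 at 0.19). Of 18 electron carrier and ubiquinone genes, Etfdh, which feeds electrons from fat oxidation to ubiquinone, was higher at 0.16 (SE 0.028, adjusted p = 5.50e-06), Etfa higher at 0.096 and Coq10b lower at -0.36. Of 14 citric acid cycle genes, 4 were higher in KO and 0 lower (Ogdh and Cs at 0.16, Mdh2 at 0.13, Sucla2 at 0.093). Of 77 mitochondrial ribosomal protein genes 3 were lower, and of 13 regulators 2 were higher and 3 lower. The higher regulators were Tfe3 at 0.20 and Esrra, a nuclear receptor of respiratory genes, at 0.16. The lower ones were Tfeb at -0.35, Epas1 at -0.27 and Gabpa at -0.097. The median log2 differences of all 7 lists lay between -0.046 and 0.042.

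The genes most like 3 members in their mean log2 level over the 18 groups were named by Pearson correlation, as a description; the groups share libraries and the movement of short genes. For Cox5a they were Ndufb2, Cox6c and Ndufs3, all at 0.94. For Sdhb they were Tmsb4x at 0.92, Dmac1 at 0.91 and Ywhaq at 0.90. For mt-Nd1 they were mt-Atp6 at 0.99, the mitochondrial pseudogene Gm10925 at 0.98 and mt-Nd4 at 0.98.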

How the data were processed

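Each of the 72 libraries was deposited by the authors as raw read counts per gene. Reads were trimmed with Trimmomatic, aligned with TopHat2 2.1.1 and counted with featureCounts on GRCm38, per the submitters' processing notes. The labels do not state the annotation release, the strand setting or the treatment of reads with several matches; such reads could lower genes with near-identical copies.

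From these counts, 18538 genes passed edgeR's filter (minimum count 10). TMM scaling and the quasi-likelihood test were used (edgeR 4.0.16, limma 3.58.1, DESeq2 1.42.0, R 4.3.3), with all 72 libraries in each fit: genotype with a 24 h cosine per genotype (63 residual degrees of freedom) for mean levels and rhythms, and 18 group means (54) for time points. Standard errors are the log2 difference divided by the square root of F. P-values were adjusted over all genes tested (threshold 0.05). Levels are CPM; log2 levels used a pseudocount of 2. The models were tested on simulated data.

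The members and lists were chosen with earlier results of these data known. Values are named for members passing a test (at most 8 per direction), for the 3 members of smallest p where none passed, for mitochondrial, complex II and isoform members, and for the highest and lowest of each complex; other named values were chosen after they were seen.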

Additional observations from a re-analysis of the deposited data

Results flagged for a closer look

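In 216 groups of 4 libraries examined for a library far from the other 3 (shares and selected members), 16 had such a library; chance alone flags about 1 group in 20. The mitochondrial members' share was 5.29% in RE time point 6 replicate 1, against 2.23 to 2.47% in the other 3, and mt-Co1 was at 18259 CPM there, against 7762 to 8804 CPM. The nuclear members' share was 0.407% in RE time point 1 replicate 4, against 0.330 to 0.342%, and 0.291% in RE time point 2 replicate 2, against 0.319 to 0.323%.

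Cox8a was at 80.9 CPM in RE time point 1 replicate 4 (others 46.3 to 50.2), at 94.4 CPM in RE time point 3 replicate 3 (others 70.6 to 72.6) and at 94.5 CPM in RE time point 4 replicate 3 (others 84.4 to 85.0). Cox7b was at 56.1 CPM in RE time point 1 replicate 4 (others 44.9 to 45.1), at 45.998 CPM in WT time point 1 replicate 3 (others 43.6 to 43.96) and at 46.8 CPM in KO time point 3 replicate 1 (others 52.7 to 53.7). Cox7a2l was at 167.0 CPM in RE time point 5 replicate 1 (others 135.0 to 139.8), Ndufab1 at 34.1 CPM in RE time point 5 replicate 4 (others 25.6 to 26.1) and Cox5a at 39.9 CPM in KO time point 1 replicate 4 (others 27.8 to 28.8). Ndufa4 was at 48.2 CPM in WT time point 4 replicate 4 (others 51.9 to 52.5) and at 56.3 CPM in KO time point 2 replicate 4 (others 61.7 to 62.2). Ndufa4l2 was at 48.5 CPM in WT time point 6 replicate 4 (others 111.7 to 122.8), a library that also stood apart in Krt14.

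The rhythm of Cox8a differed from WT in KO (edgeR adjusted p = 0.0296) and in RE (adjusted p = 0.0235), and that of Ndufab1 differed from WT in KO (adjusted p = 0.0310).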

How the results depend on the processing

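Counts of called members moved with the setting. No called difference of level between genotypes reversed its sign. Tests of rhythms and among time points carry no sign, so a reversal could not be seen in them. Of 735 alternatives for single named members that left out no single library, 580 gave the same call and 155 lost it. The cause of the changes was not tested. For mean levels, KO minus WT called 5 nuclear members, but 3 with no filter on low counts, 2, 3, 2 and 3 without time points 1, 2, 4 and 5, 3 with copies added and 8 by DESeq2; mitochondrial members went from 0 to 3 without time point 6. RE minus WT went from 1 to 0 with no filter and without time points 1, 2, 3 or 5, and its mitochondrial count from 0 to 2 without the 3 libraries that stood apart and 1 without the 5 of high mitochondrial share. RE minus KO went from 2 to 1 without time points 1, 4, 5 or 6 and 0 without time point 2; its mitochondrial count went from 0 to 5 without time point 6 and 1 without the 5 libraries.

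For rhythms, the WT nuclear count of 1 became 0 without time points 1 or 5, 6 without time point 6 and 2 without the 5 libraries. The WT mitochondrial count of 5 became 1 with no filter, 8, 0, 1, 11 and 2 without time points 1, 2, 4, 5 and 6, and 0 without the 3 libraries, without the 5 and by limma voom. The KO count of 3 became 5 with totals free of mitochondrial genes and by DESeq2, and 0, 15 and 1 without time points 2, 3 and 5. The RE count of 2 became 0 and 7 without time points 2 and 3 and 1 with copies added. The rhythm difference of KO from WT (2 called) became 1, 0, 0 and 5 without time points 1, 2, 5 and 6, and 4, 6 and 4 without the 3 libraries, without the 5 and by DESeq2; its mitochondrial count went from 0 to 2 without time point 6. That of RE from WT (1 called) became 0 without time points 1, 2, 4 or 5, 3 without time point 6, without the 3 libraries and without the 5, and 2 by DESeq2.

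Among time points, the WT mitochondrial count of 11 became 2 without the 5 libraries. The KO nuclear count of 4 became 1 and 2 without the 3 and the 5 libraries and 7 by DESeq2. The RE nuclear count of 15 became 5 with no filter, 8 with the replicate block, 9 by limma voom and 24 by DESeq2; its mitochondrial count of 0 became 2 without the 5 libraries and 1 by DESeq2. At single time points, KO minus WT (8 nuclear, 0 mitochondrial) became 2 nuclear with no filter and 3 mitochondrial without the 3 or the 5 libraries. RE minus WT (0 and 0) became 1 nuclear without either set, and 1 and 2 mitochondrial without the 3 and the 5.

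Leaving out 1 library, or every library of 1 replicate number, gave these ranges of nuclear and mitochondrial counts: mean level KO minus WT 2 to 11 and 0 to 0, RE minus WT 0 to 1 and 0 to 2, RE minus KO 0 to 3 and 0 to 0. For rhythms the ranges were 0 to 1 and 0 to 8 in WT, 0 to 5 and 0 to 0 in KO, and 0 to 2 and 0 to 0 in RE; for rhythm differences they were 0 to 4, 0 to 2 and 0 to 0 for nuclear members of KO minus WT, RE minus WT and RE minus KO, and 0 to 0 for mitochondrial members. Among time points they were 0 to 11 and 2 to 11 in WT, 0 to 10 and 0 to 2 in KO, and 0 to 35 and 0 to 5 in RE. At single time points they were 0 to 13 and 0 to 8 for KO minus WT, and 0 to 0 and 0 to 11 for RE minus WT.

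Over 612 pairs of libraries with the same replicate number, the median correlation of deviations was -0.0147, and 137 exceeded 0.1. The range was -0.509 to 0.678, and the median for different numbers was 0.0085. A median over all pairs cannot tell whether some groups shared a pairing or a batch. With the replicate block the RE count among time points was 8 in place of 15, the adjusted p of the Cox5a rhythm in KO was 0.0517, and that of Uqcrc2 at time point 5 was 0.0558. The sets of 3 and 5 libraries and the added copies were chosen after seeing the data. Depth limits Cox7a1 and Cox6b2, the lowest members.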
